A study of Mus musculus with 6 samples.

Results

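The cells described here are fibroblasts of embryonic mouse skin that carried transcripts of Aspn, C1qtnf3 and Angptl1, and they numbered 3883 of the 40653 cells kept in 6 single-cell libraries (9.55%). A cell was a member when it held at least 15 unique molecular identifiers (UMIs, counted transcripts) of Col1a1, Col1a2 and Col3a1 together, at most 3 of Krt5 and Krt14, and none of Pecam1 and Cdh5. It also had to hold at most 1 UMI of Lef1, Sp5, Nkd1 and Axin2 (the Wnt gate), at most 3 of Mfap5, Clec3b, Dpp4, Pi16 and Nov (the Mfap5 gate), and at least 3 of Aspn, C1qtnf3 and Angptl1 (the Aspn gate). The collagen, keratin and endothelial limits alone left 23187 base fibroblasts, of which the members were 16.7%. The rest of these were 8841 low-Aspn fibroblasts, which met every limit except the Aspn gate and had at most 2 UMIs of its 3 genes, 8026 Wnt-gate fibroblasts with 2 or more UMIs of the Wnt gate genes, and 2437 Mfap5-gate fibroblasts with 4 or more of the Mfap5 gate genes. Because counts of these 19 genes chose the cells, their levels are given as a description and were not tested.

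Each library was made from flank and dorsolateral skin of CD1 embryos pooled 3 to 4 to a library, dissociated with trypsin, sorted for cells that exclude DAPI and read from the 3′ end of transcripts. LOF libraries, 1 at E14.5 and 1 at E13.5, came from embryos of the genotype PDGFRalphaCreER(Lo);beta-catfl/fl;mTmG that had tamoxifen at E11.5. In that genotype a tamoxifen-dependent Cre recombinase under the control of the mesenchymal gene Pdgfra removes a part of the gene for beta-catenin and switches a membrane reporter over from tdTomato to eGFP, so cells without Pdgfra are not targeted. Control libraries, 2 at E14.5 and 2 at E13.5, are labelled WT, and the labels record no tamoxifen for them. Replicates here are libraries, and a pool cannot be split into its embryos.

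Asporin, the product of Aspn, is a small leucine-rich proteoglycan that binds collagen and holds back TGF-beta signalling. C1qtnf3 encodes a secreted protein of the C1q and tumour necrosis factor family, Angptl1 a secreted angiopoietin-like protein, and Postn the matricellular protein periostin of fibrous connective tissue. In embryonic skin the upper dermis answers Wnt signals from the epidermis and forms the hair follicle mesenchyme, while the deeper mesenchyme gives rise to lower dermis, fascia and the connective tissue around muscle and tendon.

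The promoters of the 3 genes of the Aspn gate are shown because these genes define the cells; each runs from 250 bases before to 50 after the transcription start in RefSeq (build GRCm38.p6, plus strand), with E-boxes (CANNTG, the letters bound by basic helix-loop-helix factors such as Scx and Twist2) in capitals. The windows are chr13:49544193-49544492 for Aspn, chr15:10952082-10952381 for C1qtnf3 and chr1:156838773-156839072 for Angptl1.
Aspn: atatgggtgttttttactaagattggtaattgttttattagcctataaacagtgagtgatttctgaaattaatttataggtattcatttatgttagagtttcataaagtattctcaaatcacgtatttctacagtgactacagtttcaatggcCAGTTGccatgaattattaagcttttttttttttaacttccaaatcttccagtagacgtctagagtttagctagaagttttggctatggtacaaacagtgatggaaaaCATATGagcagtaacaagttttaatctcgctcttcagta
C1qtnf3: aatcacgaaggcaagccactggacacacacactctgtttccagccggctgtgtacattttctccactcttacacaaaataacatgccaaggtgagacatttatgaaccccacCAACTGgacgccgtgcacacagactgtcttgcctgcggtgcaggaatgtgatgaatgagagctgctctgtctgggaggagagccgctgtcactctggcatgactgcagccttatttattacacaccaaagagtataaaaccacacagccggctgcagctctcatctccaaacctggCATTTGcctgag
Angptl1: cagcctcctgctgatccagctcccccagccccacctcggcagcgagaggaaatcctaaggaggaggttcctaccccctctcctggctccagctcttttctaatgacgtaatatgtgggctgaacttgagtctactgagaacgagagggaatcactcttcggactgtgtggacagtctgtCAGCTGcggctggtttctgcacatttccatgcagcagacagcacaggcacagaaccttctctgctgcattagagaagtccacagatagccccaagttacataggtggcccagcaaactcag
Aspn and C1qtnf3 have 2 E-boxes each and Angptl1 has 1. E-boxes are common letters, since 72.3% of 32851 promoters of this length hold at least 1 and 39.6% hold at least 2. The letters TATAAA were found in the windows of Aspn and C1qtnf3 and not in that of Angptl1. Read on either strand, they occurred in 13.6% of all promoters.

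Aspn was the most abundant of the 3 genes in every library but the one of E13.5 LOF. It reached 697 and 156 CPM in the E14.5 and E13.5 LOF libraries, 603 and 490.4 CPM in the E14.5 controls, and 335 and 311 CPM in those at E13.5, as counts per 1000000 summed UMIs of the members (CPM). Angptl1 was the most even, with 350.4 and 249 CPM in the E14.5 and E13.5 LOF libraries, 241 and 201 CPM in the E14.5 controls, and 203 and 182 CPM in those at E13.5. C1qtnf3 had 139.7 and 48.9 CPM in the E14.5 and E13.5 LOF libraries, 89.9 and 18.95 CPM in the E14.5 controls, and 177 and 233 CPM in those at E13.5, so it was lowest in a control at E14.5 and highest in a control at E13.5. Postn, which the rule did not use, had 1039 and 633 CPM in the E14.5 and E13.5 LOF libraries, 761 and 541 CPM in the E14.5 controls, and 489 and 223 CPM in those at E13.5, and it was above the other 3 genes in every library except a control at E13.5.

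Most members met the Aspn gate through Aspn and Angptl1, and the name C1qtnf3 describes a minority of them. At least 1 C1qtnf3 UMI was found in 19.6 and 14.7% of cells in the E14.5 and E13.5 LOF libraries, 18.7 and 12.1% in the E14.5 controls, and 37.0 and 49.1% in those at E13.5. Shares with an Aspn UMI ran from 54.7% in the E13.5 LOF library to 90.0% in an E14.5 control, and those with an Angptl1 UMI from 67.8% to 89.4%. Aspn and Angptl1 without C1qtnf3 were found together in 26.7% to 52.4% of members of a library, all 3 genes in 7.26% to 19.4%, and C1qtnf3 alone in 0% to 5.43%. Depth of skin was not measured, so the cells are called Aspn-gate fibroblasts or members below, and the word deep in their name was not tested.

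The marker genes were not particular to the members. In Mfap5-gate fibroblasts Postn had 1225 and 489 CPM in the E14.5 and E13.5 LOF libraries, 1054 and 608 CPM in the E14.5 controls, and 456 and 211 CPM in those at E13.5, which is above its member level in 3 of 6 libraries, and Schwann lineage cells held 313 to 664 CPM of it. Aspn reached 37.0 to 327 CPM and Angptl1 61.1 to 246 CPM in Mfap5-gate fibroblasts. Keratinocytes and macrophages, which should lack Aspn, held at most 2.08 CPM of it, with a UMI in 0% to 3.01% of cells of median depth 7692 to 16384 UMIs, against 7643.5 to 11122 UMIs in members. C1qtnf3 was present in muscle cells at 10.4 to 60.1 CPM, with a UMI in 8.37% to 39.4% of them. Keratinocytes also held 6.83 and 10.0 CPM of C1qtnf3 in the E13.5 controls, and in E13.5 control 1 this was above the 5.68 CPM of low-Aspn fibroblasts.

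**Figure D1:**
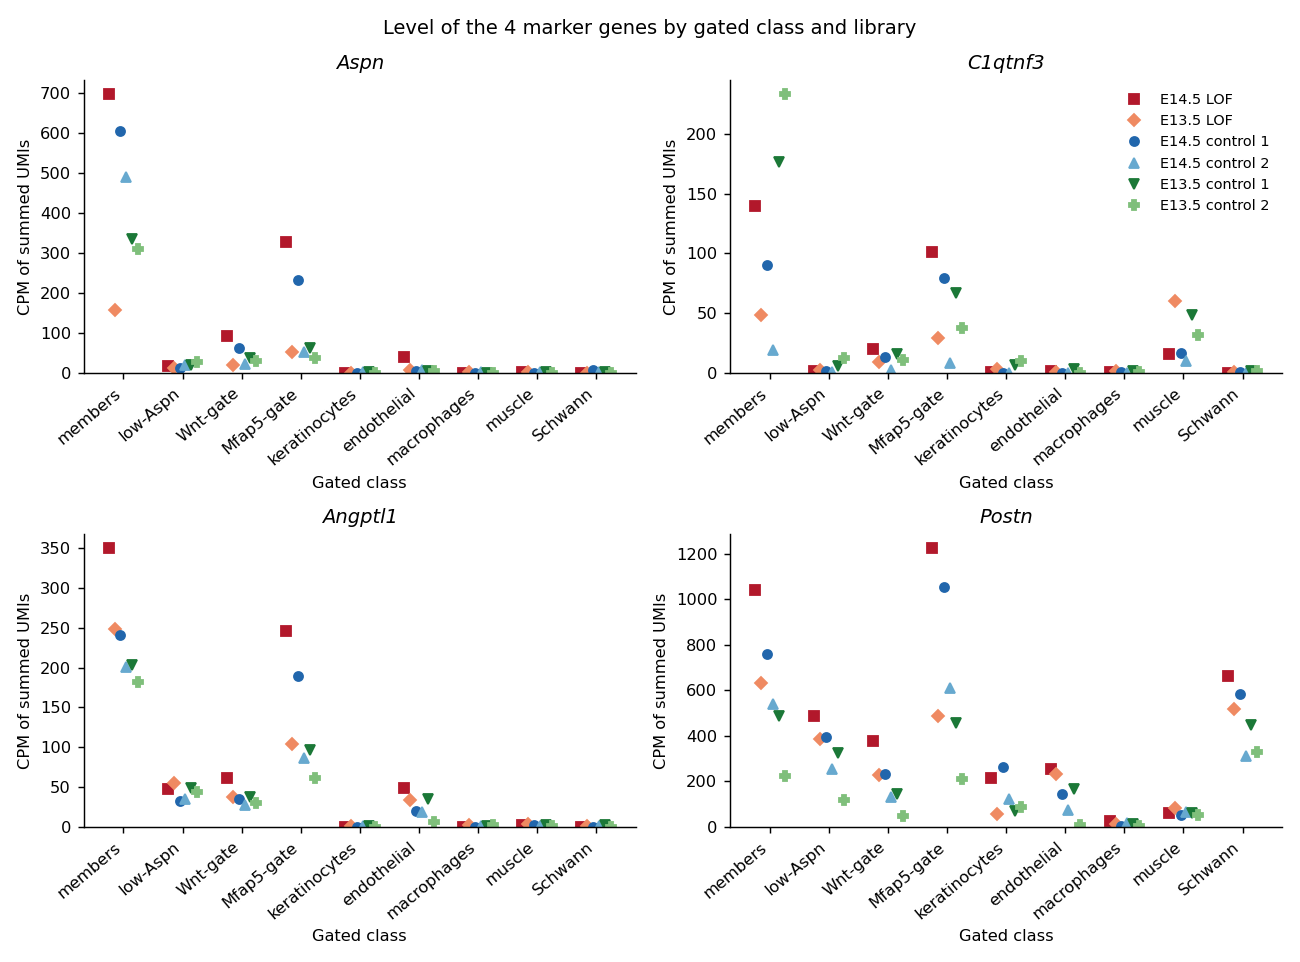
Level of Aspn, C1qtnf3, Angptl1 and Postn (CPM of summed UMIs, one panel a gene) in each gated class, with a point for each of the 6 libraries. Members hold the highest Aspn and Angptl1 points, whereas Postn in Mfap5-gate fibroblasts reaches 1225 CPM, above the highest member library at 1039 CPM.

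The gate cut a continuous range. In members just inside it, with exactly 3 UMIs of the 3 genes, there were 145 cells in the E14.5 LOF library, 324 in E13.5 LOF, 62 and 81 in the E14.5 controls, and 190 and 141 in the E13.5 controls. Just outside, with 2 UMIs, there were 198, 504, 80, 108, 313 and 249 cells in those libraries. Cells just inside held 172 to 737 CPM of Postn, and cells just outside held 148 to 709 CPM. In the E13.5 LOF library 33.6% of members had exactly 3 UMIs and 18.2% had 8 or more, whereas the E14.5 LOF library had 15.7% and 45.0%. Members were also deeper than low-Aspn fibroblasts in every library, with median UMIs of 7643.5 to 11122 against 6726 to 9411.5. The part of depth in the levels was not tested beyond a fit on cells with at least 8000 UMIs.

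Members with a C1qtnf3 UMI carried more tendon transcripts than members without one. The split uses counts of the same cells, so it is a description with no test. Scx, the transcription factor of tendon progenitors, had, in members with C1qtnf3, 46.6 and 172 CPM in the E14.5 and E13.5 LOF libraries, 52.1 and 10.8 CPM in the E14.5 controls, and 116 and 137 CPM in those at E13.5. In members without it, Scx had 1.25 and 66.7 CPM in the E14.5 and E13.5 LOF libraries, 3.31 and 1.3 CPM in the E14.5 controls, and 56.5 and 23.8 CPM in those at E13.5, so it was higher with C1qtnf3 in all 6 libraries. Tnmd, which encodes the tendon membrane protein tenomodulin, had, with C1qtnf3, 143 and 100.1 CPM in the E14.5 and E13.5 LOF libraries, 67.4 and 10.8 CPM in the E14.5 controls, and 95.2 and 83.0 CPM in those at E13.5. Without C1qtnf3 it had 11.7 and 15.4 CPM in the E14.5 and E13.5 LOF libraries, 5.74 and 5.63 CPM in the E14.5 controls, and 19.5 and 14.2 CPM in those at E13.5. The lowest Scx and Tnmd values with C1qtnf3, both 10.8 CPM in the same E14.5 control, came from only 35 cells. Each of these values is below the highest value of its gene without C1qtnf3. Mkx, a homeobox gene of tendon, was higher with C1qtnf3 in 5 of 6 libraries.

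Fmod, which encodes the collagen-binding proteoglycan fibromodulin, ranged from 26.3 to 48.2 CPM with C1qtnf3 and from 10.98 to 24.97 CPM without it. Not every matrix gene split this way, since Thbs2, a thrombospondin, and Col12a1, a collagen of fibril surfaces, were lower with C1qtnf3 in the 3 E13.5 libraries. Meox1, a homeobox gene of somite derivatives, ranged from 18.0 to 267 CPM with and 2.60 to 226 CPM without C1qtnf3, and was higher with it in each library. Rgs5, which marks the pericytes of small vessels, went the other way and ranged from 0 to 8.74 CPM with and 2.75 to 122 CPM without C1qtnf3. Col2a1, the collagen of cartilage, had 93.1 CPM with and 7.99 CPM without C1qtnf3 in the E13.5 LOF library, and at E14.5 it stayed at 7.63 CPM or less in both kinds of member.

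**Figure D2:**
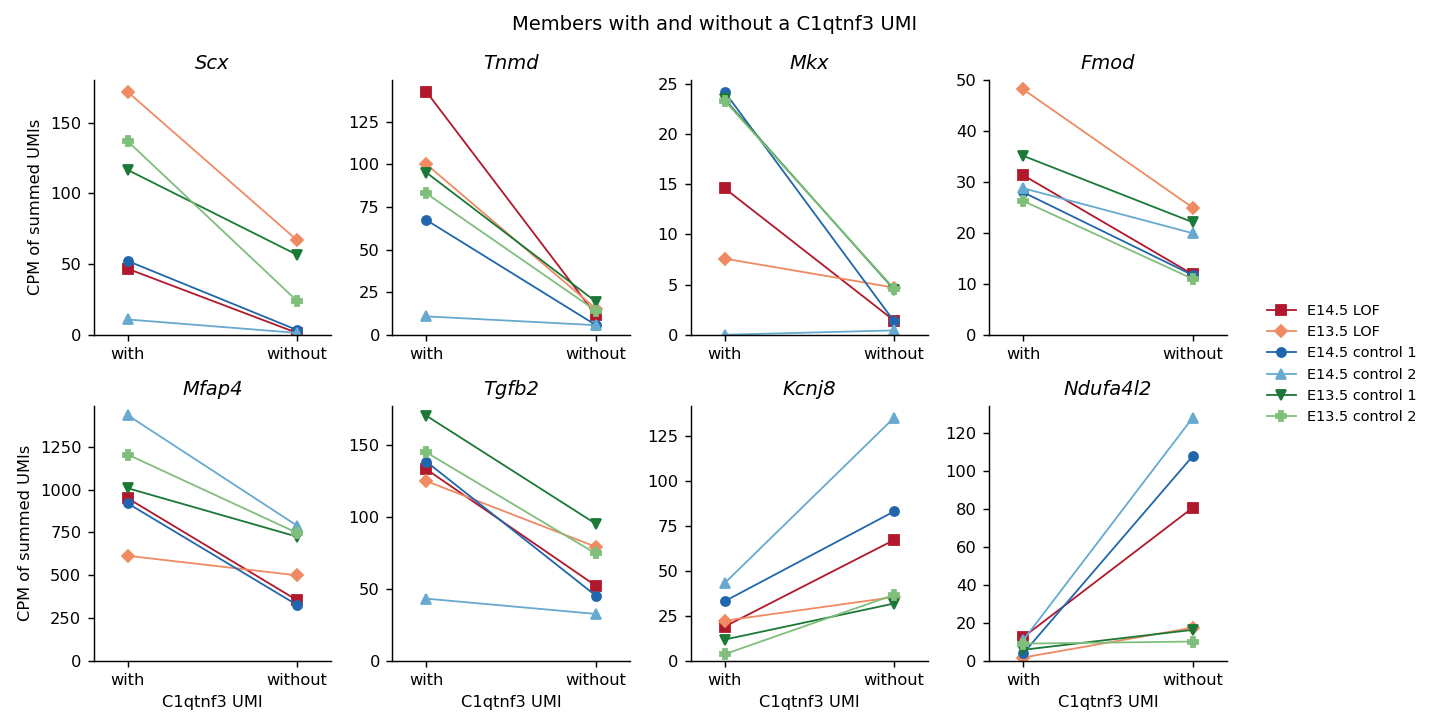
Level of 8 tendon, matrix, signalling and pericyte genes (CPM of summed UMIs, one panel a gene) in members with a C1qtnf3 UMI, on the left, and without one, on the right, with a line for each of the 6 libraries. Scx and Tnmd are lower without C1qtnf3 in all 6 libraries, and the left points of E14.5 control 2 come from 35 cells.

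Cells with tendon or pericyte transcripts made up a share of the members that differed between stages. At least 2 UMIs of Scx and Tnmd together were held, among members, by 5.86 and 26.2% of cells in the E14.5 and E13.5 LOF libraries, 6.31 and 1.03% in the E14.5 controls, and 28.1 and 24.1% in those at E13.5. Among low-Aspn fibroblasts they were 0.325 and 10.5% of cells in the E14.5 and E13.5 LOF libraries, 0.314 and 0.283% in the E14.5 controls, and 6.25 and 5.01% in those at E13.5. Among members the E14.5 libraries thus had 1.03% to 6.31% and the E13.5 libraries 24.1% to 28.1%, with no overlap. At least 3 UMIs of 6 pericyte genes (Rgs5, Kcnj8, Abcc9, Cspg4, Notch3 and Ndufa4l2) were held, among members, by 16.6 and 8.30% of cells in the E14.5 and E13.5 LOF libraries, 29.2 and 16.2% in the E14.5 controls, and 5.74 and 3.70% in those at E13.5. Among low-Aspn fibroblasts they were 4.42 and 3.52% of cells in the E14.5 and E13.5 LOF libraries, 7.85 and 5.75% in the E14.5 controls, and 6.88 and 2.68% in those at E13.5. Here the members of E14.5 libraries were above those of E13.5 libraries, again with no overlap. In the E13.5 controls Mfap5-gate fibroblasts exceeded the members, with 26.6 and 13.3% of cells. The summed level of these genes was likewise higher in Mfap5-gate fibroblasts of those controls, and higher in members elsewhere. At least 2 Meox1 UMIs were held by 51.3% of members in the E13.5 LOF library, against 11.8% in E14.5 LOF and 0.690% to 22.7% in the controls.

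**Figure D3:**
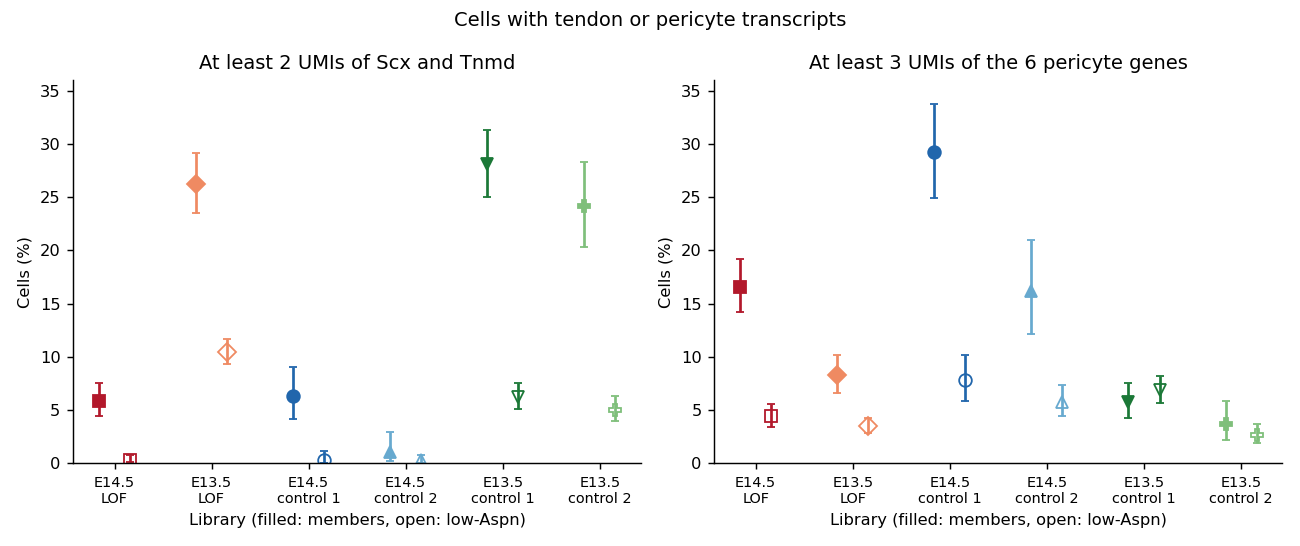
Percent of cells with at least 2 UMIs of Scx and Tnmd and with at least 3 UMIs of the 6 pericyte genes, by library, with filled points for members, open points for low-Aspn fibroblasts and bars for 95% exact binomial intervals. The pericyte share of members is highest in the 3 E14.5 libraries and the tendon share in the 3 E13.5 libraries.

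Libraries stood apart in ways the labels do not give. In members Gm42418, a gene that overlaps ribosomal RNA, had 996 CPM in E14.5 LOF and 1554 CPM in E14.5 control 1 but 50.8 to 79.6 CPM elsewhere, and Hist1h1b, Mki67 and Igf2 were highest in the same 2 libraries. Gstp1 and Pgk1 were highest in the controls numbered 2. Those 2 controls also carried eGFP, with a UMI in 33.1% of members of E14.5 control 2 and 50.9% of E13.5 control 2, although they are labelled WT. Keratinocytes of every control held UMIs of tdTomato, which is also the other colour of the reporter, and the labels do not give its source there. A tdTomato UMI was found in 23.0 and 60.5% of keratinocytes of E14.5 controls 1 and 2. In E13.5 controls 1 and 2 the shares were 98.7 and 94.2%, and in the E14.5 and E13.5 LOF libraries 25.2 and 98.4%. Macrophages had a tdTomato UMI in 7.64 and 6.02% of cells in the E14.5 and E13.5 LOF libraries and in 0.935% to 14.9% in the controls. Among members 20.1% had one in E14.5 control 1, against 1.38% to 3.90% in the other libraries. Members of the LOF libraries had eGFP in 55.7% at E14.5 and 53.1% at E13.5, and members of the controls numbered 1 in 3.74% and 3.05%. The eGFP level in members was 298 and 390 CPM in the E14.5 and E13.5 LOF libraries. It was 49.9 and 109 CPM in E14.5 and E13.5 control 2, and 3.58 and 2.90 CPM in E14.5 and E13.5 control 1. Keratinocytes, which the Cre should spare, had eGFP in 1.01% to 6.43% of cells, and macrophages in 8.28% and 17.3% of cells in the E14.5 and E13.5 LOF libraries and 0.935% to 7.22% in the controls. The parts of these differences in the results were not tested. Ctnnb1, the gene for beta-catenin, is read here from its 3′ end, so its 181 and 259 CPM in the E14.5 and E13.5 LOF libraries, 162 and 145 CPM in the E14.5 controls, and 197 and 169 CPM in those at E13.5 does not check the deletion.

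The first comparison asked which other genes were higher or lower in the members than in low-Aspn fibroblasts of the same libraries. Several genes of fibrous matrix and tendon were higher in members, and transcription factors such as Shox2, Twist2 and Irx5 were lower. Of 12295 genes tested, 885 passed the edgeR quasi-likelihood test at an adjusted p under 0.05 (Benjamini-Hochberg), which is 7.20%, with 453 higher (3.68%) and 432 lower (3.51%) in members. The median of all genes was -0.01 on the log2 scale. Levels are sums over many cells, so fewer cells with a transcript and fewer transcripts per cell cannot be told apart in the CPM values. Cells were chosen by their Aspn gate counts, so genes that vary with Aspn, C1qtnf3 or Angptl1 from cell to cell differ by that choice. Leaving out E14.5 control 1, E14.5 control 2 or E13.5 control 1 left 442, 478 and 497 genes, and the 4 libraries numbered 1 alone gave 151. Of the 24 genes named by the rule for this comparison 10 passed with those 4 libraries, whereas Rgcc, Nppc, Meox1, Mfap4, Ebf2, Gas2, Limch1, Emp2, Twist2, Crip1, Mme, Irx5, Mgst1 and Thy1 did not.

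Tendon genes had the highest median of the 31 lists, just above the pericyte list. Of 10 listed, 8 were tested, 5 were higher and none lower, with a median log2 difference of 1.33. Tnmd had, in members, 34.8 and 28.6 CPM in the E14.5 and E13.5 LOF libraries, 14.9 and 6.19 CPM in the E14.5 controls, and 46.2 and 44.0 CPM in those at E13.5. In low-Aspn fibroblasts it had 3.47 and 9.07 CPM in the E14.5 and E13.5 LOF libraries, 2.33 and 3.43 CPM in the E14.5 controls, and 9.06 and 15.2 CPM in those at E13.5. Members were higher in each library, and the log2 difference was 2.09 ± 0.27 (SE; edgeR adjusted p = 0.00882). Scx had, in members, 9.26 and 83.0 CPM in the E14.5 and E13.5 LOF libraries, 10.5 and 2.32 CPM in the E14.5 controls, and 77.6 and 72.8 CPM in those at E13.5. In low-Aspn fibroblasts Scx had 0 and 36.2 CPM in the E14.5 and E13.5 LOF libraries, 1.17 and 0.132 CPM in the E14.5 controls, and 22.4 and 14.8 CPM in those at E13.5. Its log2 difference was 1.95 ± 0.39 (edgeR adjusted p = 0.0421), and at E14.5 its level in members lay below that of low-Aspn fibroblasts at E13.5. Thbs4, a thrombospondin of tendon and muscle attachments, rose by 1.92 (edgeR adjusted p = 0.000847), Mkx by 1.75 and Fmod by 0.91. Tendon transcripts were not particular to members. The summed tendon list reached 131 and 170 CPM in Mfap5-gate fibroblasts of the E14.5 controls. Members of those controls had 112 and 133 CPM. In the other libraries members were higher, at 151 to 265 CPM against 81.7 to 138 CPM in Mfap5-gate fibroblasts. Cartilage genes gave no call, with 0 of 8 past the test, a median of -0.24 and Sox9 at -0.32.

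Some matrix genes of several families were higher in members, and a few were lower. Of 18 matricellular genes besides Postn 8 were higher and 2 lower, and the median with Postn was 0.44. Postn, a marker of the name and given without a test, had, in low-Aspn fibroblasts, 488 and 386 CPM in the E14.5 and E13.5 LOF libraries, 394 and 255 CPM in the E14.5 controls, and 323 and 119.6 CPM in those at E13.5, below its member level in each library. Tnc, which encodes tenascin C of tendon and healing tissue, had, in members, 54.3 and 44.3 CPM in the E14.5 and E13.5 LOF libraries, 39.7 and 19.3 CPM in the E14.5 controls, and 67.4 and 52.6 CPM in those at E13.5. Among low-Aspn fibroblasts the values were 11.8 and 20.3 CPM in the E14.5 and E13.5 LOF libraries, 17.8 and 5.27 CPM in the E14.5 controls, and 17.0 and 13.2 CPM in those at E13.5, and the log2 difference was 1.70 ± 0.17 (edgeR adjusted p = 0.00223). Thbs2, a thrombospondin that limits vessel growth, rose by 1.0, Sparcl1 by 0.94 and Wisp1, a secreted CCN protein, by 0.88. Matn2 fell by 0.34 and Smoc1 fell by 1.05 on the log2 scale.

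Elastic fibre genes counted 6 higher and 1 lower of 17, with a median of 0.27. Fbln5, which encodes the elastic fibre protein fibulin 5, had, in members, 59.0 and 124 CPM in the E14.5 and E13.5 LOF libraries, 38.8 and 83.5 CPM in the E14.5 controls, and 134 and 131 CPM in those at E13.5. In low-Aspn fibroblasts it had 23.5 and 69.6 CPM in the E14.5 and E13.5 LOF libraries, 22.3 and 33.4 CPM in the E14.5 controls, and 60.3 and 71.9 CPM in those at E13.5. Members were above low-Aspn fibroblasts in all 6 libraries, by 1.05 ± 0.08 on the log2 scale (edgeR adjusted p = 0.000191). Mfap4, of the microfibrils, rose by 1.26, at 413 to 945 CPM in members and 118 to 453 CPM in low-Aspn fibroblasts. Of 21 collagens tested 8 were higher and 1 lower, with a median of 0.26. Most of these differences were small, at 0.33 for Col26a1, 0.29 for Col6a3 and 0.26 for Col5a1, whereas Col8a1 rose by 1.07 and Col18a1, of basement membranes, fell by 1.06. Among small leucine-rich proteoglycans, the family of Aspn, 3 of 8 tested were higher and 1 lower, with Ogn at 0.77, Bgn at 0.47 and Lum at -0.34.

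Transcription factors moved in both directions, and 4 of 33 mesenchymal factors were higher and 8 lower. Shox2, a homeobox gene of limb and trunk mesenchyme, had, in members, 15.9 and 18.2 CPM in the E14.5 and E13.5 LOF libraries, 24.8 and 22.0 CPM in the E14.5 controls, and 8.94 and 13.7 CPM in those at E13.5. The low-Aspn fibroblasts held 45.0 and 55.9 CPM in the E14.5 and E13.5 LOF libraries, 66.1 and 50.2 CPM in the E14.5 controls, and 35.2 and 39.7 CPM in those at E13.5. The 2 sets of values did not overlap, and the log2 difference was -1.54 ± 0.08 (edgeR adjusted p = 1.34e-05). Twist2, a basic helix-loop-helix factor of dermis, had, in members, 145 and 110.2 CPM in the E14.5 and E13.5 LOF libraries, 159 and 236 CPM in the E14.5 controls, and 138 and 166 CPM in those at E13.5. In low-Aspn fibroblasts it had 315 and 124 CPM in the E14.5 and E13.5 LOF libraries, 383 and 614 CPM in the E14.5 controls, and 232 and 308 CPM in those at E13.5, and it fell by 0.91. Irx5 fell by 0.81, Irx3 by 1.0, Irx1 by 0.64, Prrx2 by 0.51 and Twist1 by 0.34. Meox1 had, in members, 63.4 and 232 CPM in the E14.5 and E13.5 LOF libraries, 21.5 and 4.25 CPM in the E14.5 controls, and 102 and 59.1 CPM in those at E13.5. The same gene had, in low-Aspn fibroblasts, 18.9 and 121 CPM in the E14.5 and E13.5 LOF libraries, 3.16 and 3.30 CPM in the E14.5 controls, and 36.9 and 11.51 CPM in those at E13.5, and it rose by 1.56 ± 0.25 (edgeR adjusted p = 0.0212). Its range over libraries was wider than this difference, with the E13.5 LOF library highest in both classes. Ebf2, a factor of adipose and connective tissue precursors, rose by 1.11.

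Signalling genes moved in both directions. Of 20 TGF-beta and BMP genes 2 were higher and 7 lower, with a median of 0.01. The ligand Tgfb2 rose by 0.82 and its receptor Tgfbr2 by 0.28. The BMP targets Id1, Id2 and Id3 fell by 0.30, 0.68 and 0.50, Bmp7 fell by 0.55 and Fst, an activin antagonist, by 0.75. Both classes had passed the Wnt gate, but this did not make them equal in its genes. Levels of Lef1, Sp5, Nkd1 and Axin2 were lower in members than in low-Aspn fibroblasts in every library. Dkk1, a Wnt inhibitor induced by Wnt signals, had, in members, 5.14 and 1.69 CPM in the E14.5 and E13.5 LOF libraries, 5.08 and 5.03 CPM in the E14.5 controls, and 2.90 and 3.89 CPM in those at E13.5. In low-Aspn fibroblasts it had 27.8 and 2.66 CPM in the E14.5 and E13.5 LOF libraries, 27.6 and 26.1 CPM in the E14.5 controls, and 10.5 and 12.3 CPM in those at E13.5, a difference of -1.99 ± 0.20 (edgeR adjusted p = 0.00067). Notum and Tcf7, also Wnt targets, fell by 1.43 and 1.03, and the secreted inhibitor Sfrp4 rose by 1.20, so 1 of 13 Wnt genes was higher and 3 were lower. The part of the Wnt gate in the falls of Dkk1, Notum and Tcf7 was not tested. Aldh1a3, an enzyme that makes retinoic acid, rose by 1.48 while Aldh1a2, another, fell by 0.83. Fgf18, a ligand of growing skeletal tissue, rose by 1.24 and the receptor Fgfr2 fell by 1.14. The chemokine genes Ccl2 and Ccl11 rose by 1.68 and 1.33. Of 20 proliferation genes none passed the test (median 0.00).

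Some genes of contractile cells and most of the pericyte list were also higher. Nppc, which encodes C-type natriuretic peptide, had, in members, 171 and 95.3 CPM in the E14.5 and E13.5 LOF libraries, 154 and 294 CPM in the E14.5 controls, and 62.8 and 42.7 CPM in those at E13.5. The level in low-Aspn fibroblasts was 41.5 and 67.4 CPM in the E14.5 and E13.5 LOF libraries, 37.0 and 71.6 CPM in the E14.5 controls, and 19.5 and 17.1 CPM in those at E13.5, and it rose by 1.60 ± 0.26 (edgeR adjusted p = 0.0277). Rgcc, a regulator of the cell cycle, rose by 1.74 ± 0.27 (edgeR adjusted p = 0.0237), with 40.2 to 267 CPM in members and 12.1 to 82.9 CPM in low-Aspn fibroblasts. Of 10 contractile genes 3 were higher, with a median of 1.01, and Acta2, the smooth muscle actin, had a difference of 1.44 that did not pass (edgeR adjusted p = 0.146). Of the 6 pericyte genes 4 were higher. Rgs5 had, in members, 61.3 and 7.76 CPM in the E14.5 and E13.5 LOF libraries, 104 and 77.4 CPM in the E14.5 controls, and 4.47 and 2.07 CPM in those at E13.5. In low-Aspn fibroblasts it had 6.41 and 1.69 CPM in the E14.5 and E13.5 LOF libraries, 7.49 and 6.46 CPM in the E14.5 controls, and 0.744 and 0.0936 CPM in those at E13.5, a log2 difference of 3.24 ± 0.21 (edgeR adjusted p = 0.000191). The summed level of the 6 pericyte genes was 324 and 95.9 CPM in the E14.5 and E13.5 LOF libraries, 424 and 383 CPM in the E14.5 controls, and 76.5 and 66.3 CPM in those at E13.5 in members, and none of them was at 0. In low-Aspn fibroblasts the sum ran from 49.7 to 91.5 CPM. Mfap5-gate fibroblasts had 162 and 94.1 CPM in the E14.5 and E13.5 LOF libraries and 184 and 217 CPM in the E14.5 controls. In the E13.5 controls they had 143 and 101 CPM, above the members. Without the cells that held 3 or more pericyte UMIs, Rgcc, Nppc, Fbln5 and Thbs2 kept their calls at 1.92, 1.86, 1.20 and 1.10, while Rasgrp2, an activator of Rap1, was at -0.87 and did not pass (edgeR adjusted p = 0.157), against 1.07 with them.

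The summed Schwann list ran from 7.25 to 24.2 CPM in members and from 18.9 to 86.9 CPM in low-Aspn fibroblasts, with 3 of 5 genes lower in members. Of 4 endothelial genes 1 was higher, Esam at 2.54. Of 4 mast cell genes 2 were lower, with a median of -2.15, and of 7 keratinocyte genes 1 was lower, with a median of -0.29. The listed genes of muscle, macrophages, melanoblasts and red cells gave no call. The summed red cell list was not low, at 41.6 to 1470.5 CPM in members and 78.7 to 2036 CPM in low-Aspn fibroblasts. Other differences among the 24 named genes were Fjx1 at 1.05, Gas2 at 0.99, Limch1 at 0.96, and falls of 1.01 in Emp2, 0.91 in Crip1, 0.89 in Mme and S100a6, 0.80 in Scara3, 0.73 in Mgst1, 0.70 in Thy1 and 0.68 in Ptrf. Over these 24 genes the E13.5 LOF library had the smallest difference between members and low-Aspn fibroblasts for 15 genes, and its median size was 0.54 on the log2 scale, against 0.91 to 1.24 in the other libraries.

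**Figure D4:**
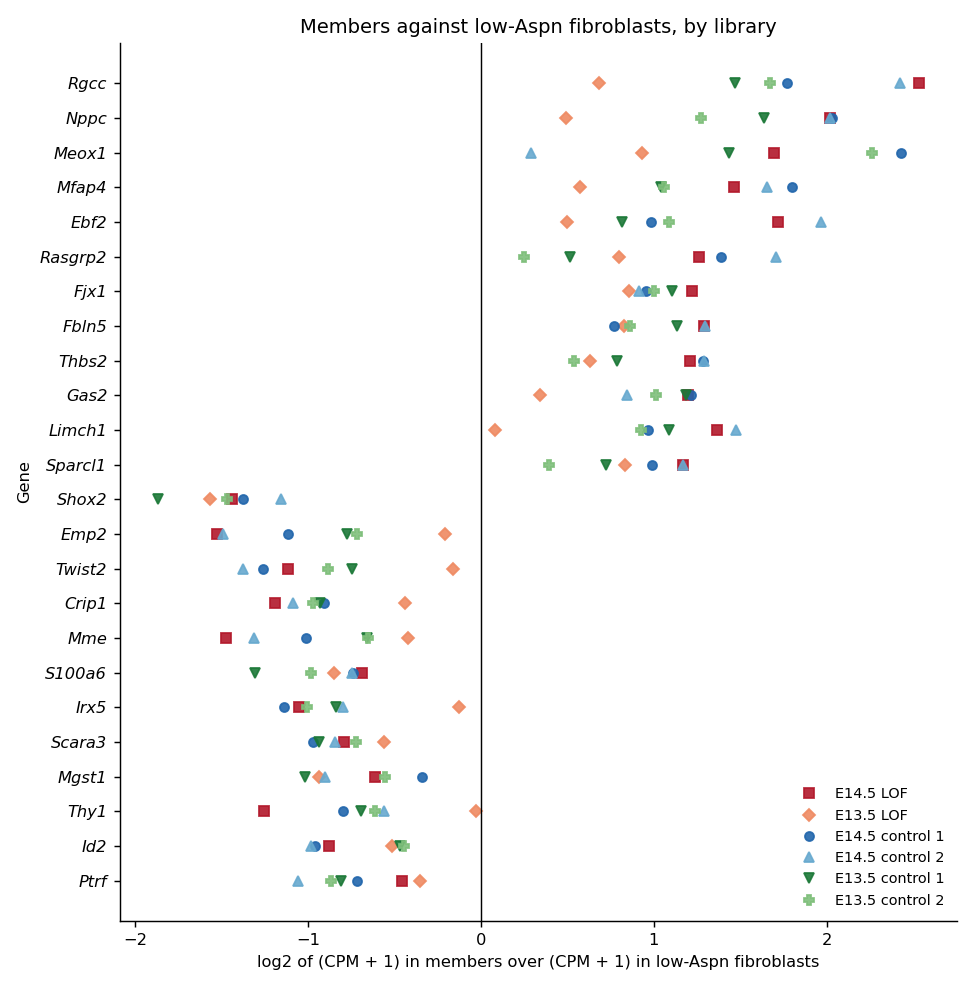
Log2 ratio of CPM + 1 in members over low-Aspn fibroblasts for the 24 named genes, with a point for each of the 6 libraries and a line at 0. The 12 genes that rose lie right of the line and the 12 that fell lie left of it in each library, with Rgcc and Nppc at one end and Shox2 at the other.

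Against Wnt-gate fibroblasts, the cells with transcripts of Wnt targets, the members had lower levels of proliferation genes, Irx1, Irx5 and some Wnt genes, and higher levels of tendon genes and of most listed matricellular, collagen and growth genes. Of 12383 genes tested 3962 passed (32.0%), 1936 of them higher (15.6%) and 2026 lower (16.4%). Notum, which encodes a secreted Wnt deacylase, had 0.257 to 1.45 CPM in members and 15.7 to 40.8 CPM in Wnt-gate fibroblasts, a log2 difference of -5.01. Dkk1 fell by 3.62 and Tcf7 by 3.43, and the inhibitors Sfrp1 and Sfrp2 rose by 1.05 and 1.73. Of 15 Wnt genes 4 were higher and 7 lower. Because the Wnt gate chose one side on other Wnt targets, these values are not independent of the gate. The agouti gene a, which codes for a pigment signal of dermis, had 5.92 to 18.2 CPM in members and 21.2 to 98.8 CPM in Wnt-gate fibroblasts (log2 difference -2.08 ± 0.30, edgeR adjusted p = 0.00233).

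Twist2 had 110.2 to 236 CPM in members. Wnt-gate fibroblasts held 615 and 292 CPM in the E14.5 and E13.5 LOF libraries, 776 and 1045 CPM in the E14.5 controls, and 646 and 750.4 CPM in those at E13.5. Members were lower in every library, with a log2 difference of -2.03 ± 0.11 (edgeR adjusted p = 1.65e-05). Irx5, Irx1 and Pth1r, the receptor of parathyroid hormone-like hormone, fell by 1.98, 1.86 and 1.71. All 20 proliferation genes tested were lower, with a median of -0.65 and Top2a, a topoisomerase of dividing cells, at -0.83. All 8 tendon genes tested were higher, with a median of 1.80. Among growth genes 12 of 18 were higher and 1 lower, with a median of 0.81; Igf1 rose by 1.32 and Igf2 by 1.0, although Igf2 had 4441 and 3655 CPM in members of E14.5 LOF and E14.5 control 1 and 467 to 692 CPM elsewhere. Of 19 matricellular genes, Postn included, 15 were higher and 1 lower, and of 21 collagens 12 were higher and none lower. Ebf2 and Ccl11 rose by 2.99 and 2.95, and Fibin, Tshz2, Col11a1 and Gucy1a3 by 1.89, 1.81, 1.93 and 2.86. Without pericyte-gene cells Gucy1a3, which encodes a subunit of the nitric oxide receptor, was at 1.0 and Cox4i2 at 0.29, and neither passed.

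Against Mfap5-gate fibroblasts, the cells with transcripts of fascia genes, the members had lower levels of lower dermis genes and higher levels of contractile, Iroquois and proliferation genes. Of 11338 genes tested 2993 passed (26.4%), 1459 higher (12.9%) and 1534 lower (13.5%). Of 13 lower dermis and fascia genes tested 12 were lower and none higher, with a median of -1.38; Plac8 fell by 3.44, Igfbp6 by 1.91, Cd248 by 1.24 and Cd34 by 1.04. The Mfap5 gate itself holds genes of this kind, so their fall describes the gate in part. Klf4, a zinc finger factor, had, in members, 105 and 135 CPM in the E14.5 and E13.5 LOF libraries, 91.3 and 114 CPM in the E14.5 controls, and 107 and 76.7 CPM in those at E13.5. In Mfap5-gate fibroblasts it had 403 and 412 CPM in the E14.5 and E13.5 LOF libraries, 481 and 749 CPM in the E14.5 controls, and 440.1 and 305 CPM in those at E13.5, and it fell by 2.11 (edgeR adjusted p = 0.000173). S100a6, Clu and Pdpn fell by 2.19, 2.25 and 1.86, with no overlap between the values of the classes.

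Iroquois genes were higher in members here, the opposite of the comparison with Wnt-gate fibroblasts. Irx3 had, in members, 26.5 and 19.6 CPM in the E14.5 and E13.5 LOF libraries, 23.3 and 28.2 CPM in the E14.5 controls, and 15.4 and 26.2 CPM in those at E13.5. In Mfap5-gate fibroblasts it had 6.26 and 2.89 CPM in the E14.5 and E13.5 LOF libraries, 5.13 and 8.76 CPM in the E14.5 controls, and 3.21 and 5.87 CPM in those at E13.5, a log2 difference of 2.18 ± 0.13 (edgeR adjusted p = 1.05e-07). Irx1, Irx5 and Irx2 rose by 1.44, 1.41 and 1.20, and all 4 genes lay between their levels in Wnt-gate and Mfap5-gate fibroblasts in each of the 6 libraries. Both comparisons share the members. Acta2 had, in members, 249 and 502 CPM in the E14.5 and E13.5 LOF libraries, 291 and 295 CPM in the E14.5 controls, and 356 and 421 CPM in those at E13.5. In Mfap5-gate fibroblasts it had 45.7 and 255 CPM in the E14.5 and E13.5 LOF libraries, 46.9 and 27.0 CPM in the E14.5 controls, and 79.1 and 137 CPM in those at E13.5, and it rose by 2.06 ± 0.33 (edgeR adjusted p = 0.00861). Of 9 contractile genes 7 were higher and none lower (median 1.0), and of 20 proliferation genes 11 were higher and none lower (median 0.47). Col8a1 rose by 3.43 and Col5a3 fell by 3.09. Rspo1, a secreted amplifier of Wnt signals, rose by 1.63, Tnc by 1.62, and Penk, an opioid peptide precursor, by 1.49. Osr1 and Osr2, factors of muscle connective tissue, fell by 0.82 and 1.38. Postn differed by -0.08, given as a description. With the 4 libraries numbered 1 alone 18 of the 24 genes named by the rule passed, and Acta2, Nppc, Cox4i2, Pdgfrb, Sema3c and Dmrt2 did not.

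The share of fibroblasts that were members was next set against stage and genotype. Members were 20.3% of base fibroblasts in the E14.5 LOF library (95% exact interval 19.1% to 21.5%) and 21.6% in E13.5 LOF (20.4% to 22.9%). In the controls they were 12.7% and 9.98% at E14.5 and 17.8% and 13.9% at E13.5. The E14.5 controls averaged 11.3% ± 1.93 and the E13.5 controls 15.9% ± 2.77 (SD, n = 2 each). Their difference of -4.53 points had a p of 0.333 in a two-sided exact permutation test, the smallest that 2 against 2 libraries can give. LOF libraries exceeded the controls of their stage by 8.92 points at E14.5 and 5.75 points at E13.5, on average 7.33 points, with p = 0.111 in an exact permutation test within stages, again the smallest possible. The Wnt gate is part of the rule, so the share is partly set by it. Wnt-gate fibroblasts were 1046 of 4551 base fibroblasts in E14.5 LOF and 469 of 4459 in E13.5 LOF. They were 1935 of 3370 and 1377 of 2907 in the E14.5 controls. In the E13.5 controls they were 1957 of 4594 and 1242 of 3306. The part of the Wnt gate in the LOF difference was not tested.

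The share moved with how depth was handled and with the base it was taken over. Thinning brought cells to 5000 UMIs and left out the shallower ones, 279 to 1315 kept cells a library. The classes were then set anew, and base fibroblasts of E13.5 control 2, for one, numbered 2041 after thinning, against 3306 at full depth. Among thinned cells the members were 19.4% in E14.5 LOF and 10.9% in E13.5 LOF, against 11.2% and 7.67% in the E14.5 controls and 13.4% and 11.3% in the E13.5 controls. The E13.5 LOF library then lay 1.42 points below the mean of its controls, and the average LOF difference was 4.27 points (exact permutation p = 0.556). In cells with at least 8000 UMIs, not thinned, the average LOF difference was instead 8.09 points (exact permutation p = 0.111). There the LOF libraries exceeded their controls by 7.99 points at E14.5 and 8.20 points at E13.5. Of fibroblasts that passed both the Wnt and the Mfap5 gate the members were 37.5% in E14.5 LOF and 27.1% in E13.5 LOF, against 40.2% and 21.5% in the E14.5 controls and 33.9% and 24.5% in the E13.5 controls. On that base the LOF difference was 2.28 points (exact permutation p = 0.889), smaller than over all base fibroblasts, with E13.5 LOF 2.05 points below the mean of its controls. The stage difference on that base turned to 1.65 points (exact permutation p = 1.0). Intervals cover counting error only.

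**Figure D5:**
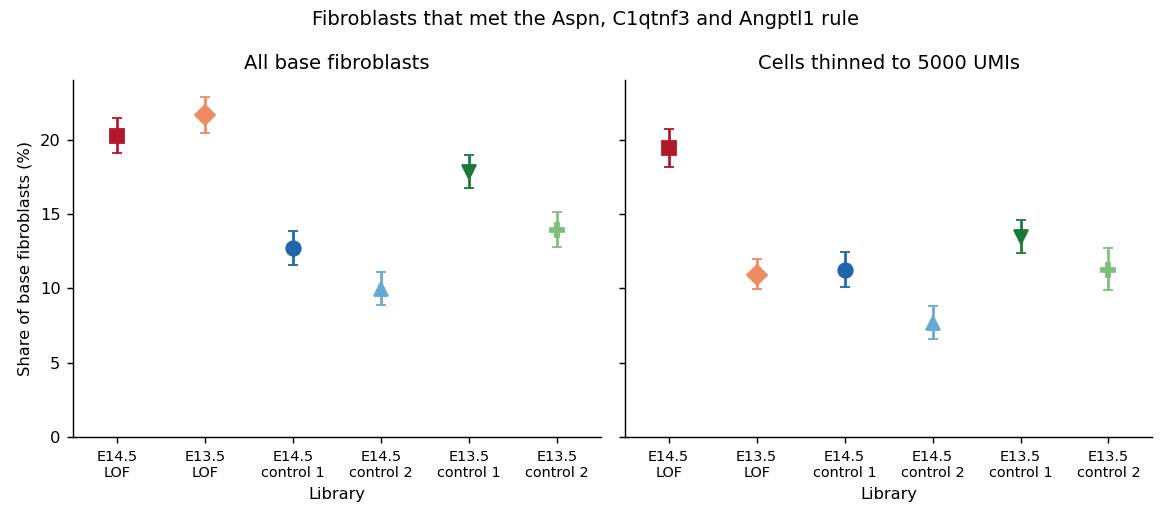
Members as a percent of base fibroblasts in each library at full depth and after thinning to 5000 UMIs, where shallower cells were left out, with 95% exact binomial intervals. Both LOF libraries are above all controls at full depth, and after thinning the E13.5 LOF library falls among the controls.

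Between stages no gene of the members passed the test across all genes, so gene groups are given by how many of their genes had values that did not overlap between the E14.5 and the E13.5 controls. With 2 libraries a stage, 0 of 11530 genes passed in edgeR (0%), 1716 had an unadjusted p under 0.05 (14.9%), and DESeq2 called 290. Leaving out E14.5 control 2 gave 2205 calls, and leaving out another control 89 to 120, but such a fit takes the spread from the other stage alone and assumes that the lone library varies likewise. Values of the 2 stages did not overlap for 2304 genes that were higher at E14.5 (20.0%) and 3101 that were lower (26.9%). Scx had 10.5 and 2.32 CPM at E14.5 and 77.6 and 72.8 CPM at E13.5, a log2 difference of -3.47 ± 0.51 (edgeR adjusted p = 0.0638). Of 9 tendon genes 4 were lower without overlap and 1 was higher, Htra3. Of 7 cartilage genes 6 were lower without overlap.

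Rgs5 had 104 and 77.4 CPM in members at E14.5 and 4.47 and 2.07 CPM at E13.5 (log2 difference 4.70 ± 0.39, edgeR adjusted p = 0.0511). All 6 pericyte genes were higher at E14.5 without overlap, as was the share of members with pericyte transcripts. Penk had 108 and 98.6 CPM at E14.5 and 18.7 and 12.4 CPM at E13.5, and Dpt, which encodes the dermal matrix protein dermatopontin, had 219.6 and 306 CPM at E14.5 and 35.5 and 43.5 CPM at E13.5. Of 19 collagens 12 were higher without overlap and 3 lower, with a median of 0.81, and Col6a3 had a log2 difference of 1.89. On the other side Crabp2, which carries retinoic acid, had 54.8 and 63.0 CPM at E14.5 and 292 and 328 CPM at E13.5. Bmp4, a signal that patterns mesenchyme, had 9.03 and 8.12 CPM at E14.5 and 50.6 and 77.2 CPM at E13.5. Mpped2 and Tgfbi had differences of -3.21 and -2.12. Of 12 genes induced by dissociation 10 were higher at E14.5 without overlap (median 1.09), and their part in the stage differences was not tested.

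Between genotypes no gene of the members passed the test. Over all 6 libraries with stage in the model, 0 of 12570 genes passed in edgeR (0%), 446 had an unadjusted p under 0.05 (3.55%) and DESeq2 called 22; the 4 libraries numbered 1 alone gave 103. With 1 LOF library a stage, biological spread among LOF embryos was not measured. Values did not overlap with the controls of their stage for 1909 genes that were higher (15.2%) and 1158 that were lower (9.21%) in LOF. Peg10, an imprinted gene, had 149 CPM in E14.5 LOF and 84.1 CPM in E13.5 LOF, against 63.4 and 25.5 CPM in the E14.5 controls and 35.4 and 27.2 CPM in the E13.5 controls (log2 difference 1.54 ± 0.28, edgeR adjusted p = 0.734). Tshz2, a zinc finger gene of trunk mesenchyme, had 350.2 and 346 CPM in E14.5 and E13.5 LOF, against 136 to 201 CPM in the controls. Igfbp5, an IGF-binding protein, had 912 and 930.5 CPM in the LOF libraries, against 399 to 604 CPM in the controls. Efemp1, a fibulin of elastic tissue, had 16.6 and 21.8 CPM in LOF, against 34.4 to 51.9 CPM in the controls (edgeR adjusted p = 0.673). Kcnk2, a potassium channel gene, had 21.3 and 15.3 CPM in LOF, against 34.8 to 57.5 CPM in the controls. Col8a1 had 32.1 and 10.6 CPM in LOF, against 35.9 to 49.5 CPM in the controls. In cartilage genes the median was 0.73 with 5 of 8 higher without overlap, and the tendon list had a median of 0.05.

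Meox1 had 63.4 CPM in E14.5 LOF against 21.5 and 4.25 CPM in the E14.5 controls, and 232 CPM in E13.5 LOF against 102 and 59.1 CPM in the E13.5 controls (log2 difference 1.84 ± 0.43, edgeR adjusted p = 0.862). Rgcc, which was high in members compared with low-Aspn fibroblasts, had 75.1 CPM in E14.5 LOF against 97.5 and 188 CPM in the E14.5 controls, and 40.2 CPM in E13.5 LOF against 174 and 267 CPM in the E13.5 controls. The 3 genes of the Aspn gate did not share a direction. Aspn was highest of all in E14.5 LOF and lowest in E13.5 LOF, C1qtnf3 was above both controls at E14.5 and below both at E13.5, and Angptl1 was above both controls at each stage.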

How the data were processed

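The authors deposited UMI counts per gene and cell for 6 libraries; Cell Ranger, Seurat and the build mm10 (GRCm38) are named per the submitters' processing notes, with versions not given in the sources used here. Of 41594 barcodes, 40653 had at least 500 genes and at most 10% mitochondrial counts; libraries held 53461986 to 86446575 UMIs. Doublets were scored by simulation (0.8% per 1000 cells) and left in, except in one alternative. Counts were summed by class and library and tested with edgeR 4.0.16 (quasi-likelihood, TMM, filterByExpr, robust), with library as a block between classes and stage as a covariate for genotype; p-values were adjusted over all genes except the 19 of the rule. The SE of a log2 difference is not given by the test and was taken as the size of the difference over the square root of its F statistic. The test was run first on simulated data. DESeq2 1.42.0 and limma 3.58.1 ran under R 4.3.3; other steps used Python 3.11.15. Intervals are exact binomial. Alternatives were other gates, filters, scalings, depths and libraries left out. Exclusion of pericyte or Scx and Tnmd cells, subsets of libraries and stage interactions were chosen after seeing the data.

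Members and lists were chosen with earlier results of these data known. Named genes are, for each comparison, up to 12 rises and 12 falls of largest fold with adjusted p under 0.05, mean log2 CPM of at least 5 and one direction in every library, without predicted, ribosomal, mitochondrial or haemoglobin genes, and with CPM in members at least 1/5 of the highest class; where fewer than 6 passed, the 6 and 6 of smallest p without overlap; and up to 4 per list by smallest p. Other genes named were chosen after their values were seen. Labels do not say that libraries came from separate litters, so p-values measure the spread between these libraries.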

Additional observations from a re-analysis of the deposited data

Results flagged for a closer look

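Among the genes named in the comparisons of classes, 15 values differed between the stages by the test of the difference itself, an interaction of class and stage over the 6 libraries (edgeR quasi-likelihood test, Benjamini-Hochberg over all genes). This count was not set against the share of all genes that passed the same test, so it is a description and not an excess. Each value below is the log2 difference between members and the other class at E14.5 minus that at E13.5.

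Against low-Aspn fibroblasts the values were 0.86 for Rasgrp2 (1.49 at E14.5 and 0.63 at E13.5), 0.60 for Thbs2 (1.28 at E14.5 and 0.68 at E13.5), 0.39 for Sparcl1 (1.13 at E14.5 and 0.73 at E13.5), -0.84 for Emp2 (-1.39 at E14.5 and -0.56 at E13.5), -0.71 for Mme (-1.27 at E14.5 and -0.57 at E13.5) and -0.45 for Id2 (-0.92 at E14.5 and -0.48 at E13.5), with edgeR adjusted p from 0.000199 to 0.0208. Rasgrp2, Thbs2 and Sparcl1 rose more, and Emp2, Mme and Id2 fell more, at E14.5.

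Against Wnt-gate fibroblasts the values were 1.76 for Cox4i2 (2.76 at E14.5 and 1.01 at E13.5), 0.81 for Col11a1 (2.34 at E14.5 and 1.52 at E13.5), 0.87 for Tshz2 (2.26 at E14.5 and 1.39 at E13.5), -1.37 for a (-2.79 at E14.5 and -1.42 at E13.5) and -1.52 for Shox2 (-2.23 at E14.5 and -0.71 at E13.5), with edgeR adjusted p from 0.00088 to 0.0256. Against Mfap5-gate fibroblasts they were 2.54 for Cox4i2 (3.87 at E14.5 and 1.33 at E13.5), 0.94 for Ndufa4l2 (2.14 at E14.5 and 1.21 at E13.5), 1.03 for Pdgfrb (1.94 at E14.5 and 0.92 at E13.5) and -1.80 for Sema3c (-2.80 at E14.5 and -0.99 at E13.5), with edgeR adjusted p from 4.29e-07 to 0.0491. Cells with pericyte transcripts were a larger share of members at E14.5, and their part in the stage differences of Rasgrp2, Cox4i2, Ndufa4l2 and Pdgfrb was not tested. Without those cells Rasgrp2 over both stages was at -0.87 and did not pass (edgeR adjusted p = 0.157).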

How the results depend on the processing

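Counts of calls between classes moved by more than 1.5 times under few settings. Against low-Aspn fibroblasts there were 3 calls with no library block, 151 with the libraries numbered 1 only and 1958 with the E14.5 libraries only, and 442 (without E14.5 control 1) to 969 (without E13.5 LOF) with 1 library left out. Against Wnt-gate fibroblasts there were 601 with no library block and 2499 with the libraries numbered 1 only (2880 to 3946 with 1 library left out), and against Mfap5-gate fibroblasts 348 with no library block and 1718 with the E13.5 libraries only (2160 to 3001). Without cells holding pericyte transcripts, Rasgrp2 against low-Aspn fibroblasts turned to -0.87, Ndufa4l2 against Mfap5-gate fibroblasts to -0.61 and Ndufa4l2 between stages to -0.19, and none of the 3 passed (edgeR adjusted p = 0.157, 0.153 and 0.903). Ndufa4l2 is one of the 6 genes whose counts removed the cells, so its fall follows from that filter.

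For stage, calls were 290 with DESeq2, 45 with RLE factors, 967 with no filter on low counts, 30 with a gate of 2 UMIs, 40 with cells of at least 8000 UMIs, 40 without high doublet scores, 18 without Scx and Tnmd cells, and 89 to 2205 with 1 control left out, where the lone library of a stage is assumed to vary like the other stage. For genotype they were 22 with DESeq2, 42 with no filter, 103 with the libraries numbered 1 only, and 0 with any 1 library left out. A replicate block gave 1095 calls for stage and 1 for genotype; the labels do not pair the numbers, and the deviations of same-numbered controls had r = 0.297 across 11530 genes.

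The stage difference in the share of members was -8.66 points with a gate of 2 UMIs, -1.06 with 5, -2.04 in cells of at least 8000 UMIs and -1.76 without Scx and Tnmd cells, and it turned to 1.65 over fibroblasts that passed the Wnt and Mfap5 gates (-6.49 to -2.58 with 1 control left out). The LOF difference was 10.8 points with the Aspn gate alone, 10.1 with a gate of 2 and 4.31 with a gate of 5. It was 8.09 in cells of at least 8000 UMIs and 4.27 thinned (5.75 to 8.92 with 1 library left out). The causes were not tested. With 1 LOF library a stage, the spread among LOF pools was not measured, and 290 members in the smallest library limit low genes most.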

Other observations

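Fibroblast lists outside the account above are set here against the 7.20% of all genes called against low-Aspn fibroblasts (3.68% higher and 3.51% lower). Of 12 dermal condensate genes, the set of the hair follicle mesenchyme, 0 passed the edgeR quasi-likelihood test, with a median log2 difference of -0.28. Of 18 growth genes 1 was higher, Igfbp3 at 0.31, and 1 was lower, Hmga2 at -0.34. Of 7 muscle connective tissue genes 1 was higher, Tcf7l2 at 0.15, and 1 was lower, Osr1 at -0.39. Of 9 genes of the C1q and angiopoietin-like families Angptl2 was higher at 0.40 and Angptl4 lower at -0.29, so relatives of C1qtnf3 and Angptl1 gave 2 calls in opposite directions.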
